A study of Marchantia polymorpha with 12 samples.

Results

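In the liverwort Marchantia polymorpha, 38 genes had higher transcript levels in a fatty acid desaturase double mutant than in the wild-type strain Tak-1, both in mock plants and in wounded ones. They were selected on these values: counts were scaled to a common library total (CPM), 0.5 was added to each group mean, and a gene entered when the log2 difference, mutant minus Tak-1, was at least 0.5 in mock and at least 0.5 after wounding, with both mutant means at 5 CPM or more. The 38 genes are 0.383% of the 9922 genes whose mutant means reached 5 CPM in both states, out of 20574 gene IDs in the table. Since the genotype differences chose the genes, they are given as a description without a test. The wound effect averaged over both genotypes was no criterion of the choice and was tested. The floor of 5 CPM did apply to both mutant states. A wound effect fitted in Tak-1 or the mutant alone shares its libraries with the choice, so it is given as a size without a test.

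Desaturases introduce double bonds into the fatty acids of membrane lipids, and those of the omega-3 class complete the trienoic forms. Lipoxygenases add oxygen to such polyunsaturated fatty acids, and CYP74 enzymes turn the hydroperoxides into oxylipins, among them the precursors of jasmonates. In Marchantia the hormone that the jasmonate receptor COI1 perceives is a dinor form of OPDA rather than jasmonoyl-isoleucine, and wounding is a classic trigger of this pathway in land plants.

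The 12 libraries fall into 4 groups of 3: mock Tak-1, wounded Tak-1, mock mutant and wounded mutant. Tak-1 is a male wild-type accession, and the mutant is called Mpfad3fad7 in the sample titles and Mpdes6fad5 in the growth protocol, with no statement on the number of lines. Both genotypes grew for 3 weeks on agar, tweezers were used for wounding, and tissue labelled as leaflets was frozen after 2 h. A replicate was an independent set of 6 to 8 plants, from which apical fragments without gemma cups were taken. Per-library values below run in 1 order: Tak-1 mock libraries 1, 2 and 3, wounded Tak-1 libraries 1, 2 and 3, mutant mock libraries 1, 2 and 3, and wounded mutant libraries 1, A and B, the last pair sharing a column name and so having no number.

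Library totals ran from 19121900 to 30821817 counts, so that 3 counts equal 0.0973 to 0.157 CPM. Of 4 desaturase genes looked at for the names of the mutant, none is among the 38. They were MpFAD3, MpDES6 and MpFAD5, whose symbols occur in the names, and MpDES5, whose symbol occurs in neither. No gene with the symbol MpFAD7 was looked at. The mutant minus Tak-1 differences of the 4 genes were 0.12 to 0.41 in mock and 0.02 to 0.28 after wounding. Transcript counts do not show an edited sequence and so do not check the genotype. Genes with V chromosome IDs, which mark male plants, summed to 3044 to 4938 CPM in every library, of both genotypes. Of 207 such IDs 72 had counts. No ID of the female U chromosome is in the table, so its transcripts could not be looked for. Of the antheridium markers, MpBNB and MpPRM had at most 3 counts in any library. The 5 antheridium and sperm markers summed to 190 to 204 CPM in mock Tak-1 and 179 to 184 CPM in the mock mutant. Most of this sum came from MpRKD, with 196, 184 and 196 CPM in mock Tak-1 and 177, 173 and 178 CPM in the mock mutant. In mock libraries MpDUO1 had at most 0.575 CPM and MpFGMYB at most 7.21 CPM. The 3 gemma cup and gemma markers summed to 75.4 to 119 CPM in mock Tak-1, 73.1 to 106 CPM in wounded Tak-1, 62.8 to 86.2 CPM in mutant mock and 80.5 to 85.8 CPM in the wounded mutant. Among them MpGCAM1, a MYB regulator needed for gemma cups, had 20.3, 62.2 and 26.9 CPM in mock Tak-1, 26.5, 15.7 and 37.4 CPM in wounded Tak-1, 21.3, 2.35 and 1.19 CPM in mutant mock and 6.23, 11.2 and 7.01 CPM in the wounded mutant. MpKAR, of the same list, went the other way, with 43, 44.2 and 44.7 CPM, then 21.1, 15.1 and 20.9 CPM, then 51.9, 48.5 and 55.5 CPM, then 22.6, 27.2 and 24.2 CPM in the same order of groups. MpCLE2 had 12.1, 12.4 and 11.3 CPM, then 35.7, 42.4 and 47.5 CPM, then 12.9, 11.9 and 13.1 CPM, then 56.7, 42.1 and 54.6 CPM, overlapping between genotypes in both states. The 2 air pore and chamber markers summed to 142 to 149 CPM in mock Tak-1 and 130.2 to 141 CPM in the mock mutant. After wounding they summed to 237 to 265 CPM in Tak-1 and 186 to 219 CPM in the mutant. There MpNOP1 did not overlap between genotypes, and MpWIP did. Of 4 rhizoid markers 1 was found, MpRSL1, at 15.2 to 20 CPM in mock Tak-1 and 9.41 to 18 CPM in the mock mutant. The part of gemma cup, air pore or rhizoid tissue in the levels of the 38 genes was not tested. In such tissue fewer cells of a type and less RNA per cell cannot be told apart.

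The genotype difference of the 38 genes had a median of 0.71 in mock, with a range of 0.50 to 5.57, and a median of 0.79 after wounding, with a range of 0.50 to 3.32. A total of 10 genes differed by 1 or more in both states and 23 by less than 1 in both. The difference was larger in mock for 18 genes and larger after wounding for 20, and for 26 genes the mock and wound values lay within 0.25 of each other. Every mutant mock library stood above every Tak-1 mock library for 29 genes, where 9.72% of the 9922 genes did so. In wounded plants this held for 37 genes (23.6% of the 9922), and in both states for 28 (5.21%). These shares come from the contrasts that chose the genes and nothing is read from them. The 38 genes together held 0.196 to 0.241% of the counts of Tak-1 libraries and 0.57 to 0.771% of those of mutant libraries.

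**Figure D1:**
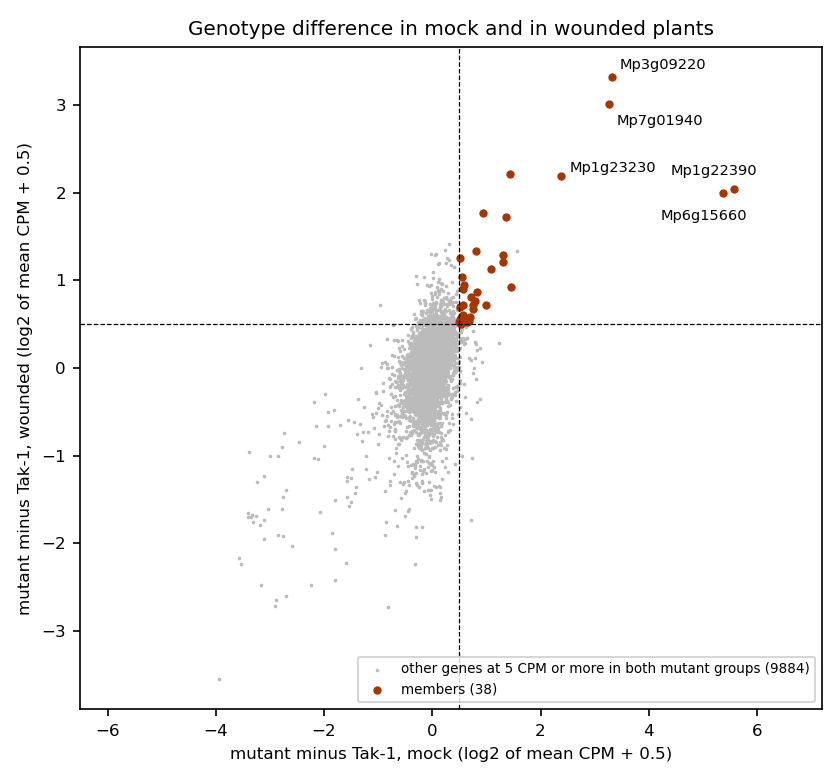
Each point is a gene at 5 CPM or more in both mutant groups, placed by its mutant minus Tak-1 difference in mock plants (x axis, log2 of mean CPM + 0.5) and in wounded plants (y axis, same scale), with the 38 members in brown, the other 9884 genes in grey and the threshold of 0.5 as broken lines. Most members lie close to the threshold, and 5 labelled genes lie far from it, with Mp1g22390 and Mp6g15660 much farther out in mock than after wounding.

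**Figure D2:**
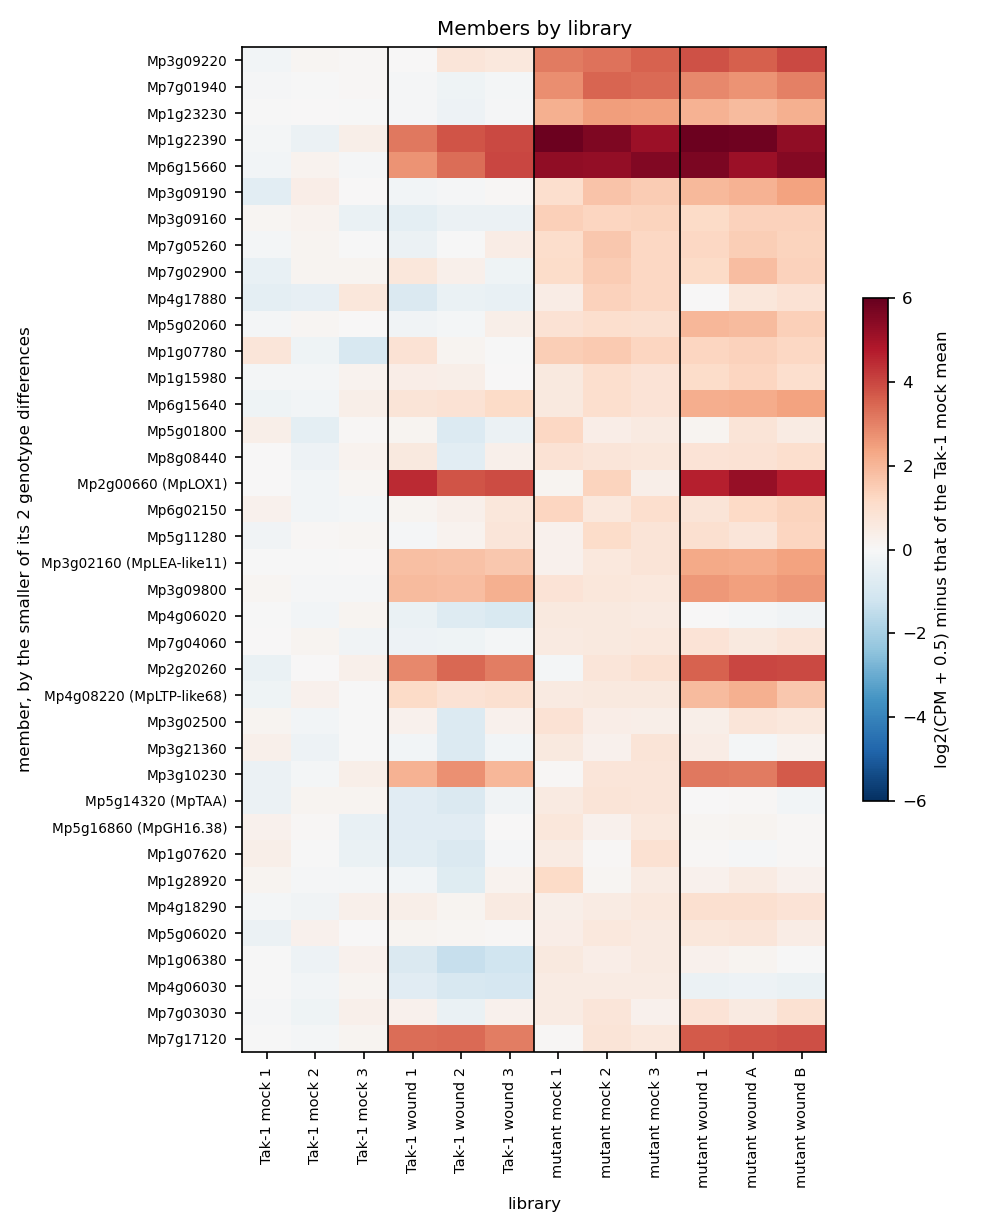
Rows are the 38 members, ordered by the smaller of their mock and wound differences, and columns are the 12 libraries. Colour is log2(CPM + 0.5) minus that of the Tak-1 mock mean. Mutant columns are redder than Tak-1 columns of the same state in most cells, and a subset of rows, MpLOX1 and Mp7g17120 among them, turns red in the wounded columns of both genotypes.

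Only 5 of the 38 genes carry a symbol in the reference gene table (assembly MpTak2_v7.1), and the other 33 are known by ID, so no role is given for them. The first of the 5 is MpLOX1 (Mp2g00660), a lipoxygenase. It had 8.41, 7.36 and 9.08 CPM in mock Tak-1, 195, 118 and 132 CPM in wounded Tak-1, 9.47, 21.7 and 10.6 CPM in mutant mock and 223, 324 and 233 CPM in the wounded mutant. Wounding moved the transcript from single or low double digits to above 100 CPM in both genotypes, and the mutant libraries stood above the Tak-1 libraries in each state, in mock by a narrow gap. MpLOX1 rose after wounding by 4.28 ± 0.22 (log2, SE; edgeR adjusted p = 2.02e-09), the largest averaged wound effect of the 38, and its mutant minus Tak-1 differences were 0.71 in mock and 0.81 after wounding. Mutant mock library 2 carries much of the mock difference, with the other mutant mock libraries at 9.47 and 10.6 CPM.

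The other lipoxygenases and CYP74 enzymes give MpLOX1 its context. Of 17 tested genes with these names, 9 rose after wounding, 4 fell and 4 were not called. Of the 10 at 5 CPM or more in both mutant groups, 7 had genotype differences below 0 in both states. MpLOX1 was the single gene with both above 0. The matching shares of these directions over all 9922 genes were not computed. The floor of 5 CPM applied to the mutant means alone, so a gene low only in the mutant drops out of these counts. Over all 13726 tested genes, 34.5% rose and 30.0% fell after wounding. No family was tested as a set, so family counts, here and below, are description. MpLOX4 (Mp5g21680), which rose by 4.21 ± 0.20 (adjusted p = 9.44e-10), had a mean of 8.84 CPM in Tak-1 before and 262 CPM after wounding, and of 7.08 and 74.2 CPM in the mutant. MpLOX1 and MpLOX4 thus had wound effects of like size only in the average over genotypes. The means of MpLOX1 rose 17.9 times in Tak-1 and 18.7 times in the mutant. MpLOX4 rose more than MpLOX1 in Tak-1 and less in the mutant. After wounding the genotype differences of MpLOX1 and MpLOX4 were 0.81 and -1.81.

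MpTAA (Mp5g14320), the aminotransferase that converts tryptophan to indole-3-pyruvate in auxin synthesis, was a member that fell after wounding. It had 18.5, 26.4 and 26.5 CPM in mock Tak-1, 14.7, 12.8 and 20.7 CPM in wounded Tak-1, 34.6, 40.5 and 39.3 CPM in mutant mock and 24.6, 24.6 and 21.3 CPM in the wounded mutant. The wounded mutant libraries lay in the range of mock Tak-1, and the genotypes did not overlap within a state, although they came close after wounding. The averaged wound effect was -0.55 ± 0.11 (adjusted p = 0.000818), and the genotype differences were 0.67 in mock and 0.53 after wounding. MpYUC2 (Mp8g08780), the flavin monooxygenase that acts next in the same route, had an averaged wound effect of -1.25 ± 0.11 (adjusted p = 5.92e-07) and genotype differences of 0.16 and 0.75, short of the threshold in mock. Of 30 tested auxin genes 12 rose, 12 fell and 6 were not called, and of the 18 at 5 CPM or more in both mutant groups 4 had differences above 0 in both states and 6 below 0 in both.

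MpLTP-like68 (Mp4g08220) belongs to the lipid transfer proteins, small secreted proteins that bind lipids. It had 10.9, 15.5 and 12.6 CPM in mock Tak-1, 29.7, 23.9 and 25.5 CPM in wounded Tak-1, 19.1, 19.8 and 19.7 CPM in mutant mock and 50.6, 58.1 and 40.4 CPM in the wounded mutant. The 4 groups did not overlap, with wounded mutant plants highest. It rose by 1.27 ± 0.10 (adjusted p = 1.47e-07), with genotype differences of 0.57 in mock and 0.90 after wounding. Of 12 tested lipid transfer genes 4 rose, 1 fell and 7 were not called. Another that rose, MpLTP-like65 (Mp3g06560, 1.34 ± 0.09, adjusted p = 2.36e-08), had genotype differences of -1.17 and -1.26, and of 10 lipid transfer genes at 5 CPM or more in both mutant groups 6 were above 0 in both states and 4 below.

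MpLEA-like11 (Mp3g02160) is named for late embryogenesis abundant proteins, which in many plants accumulate as tissue dries. It had 29, 29.4 and 30.1 CPM in mock Tak-1, 103, 102 and 90.9 CPM in wounded Tak-1, 35, 46.4 and 51.2 CPM in mutant mock and 146, 142 and 161 CPM in the wounded mutant. Both genotypes stepped up with wounding, and the groups did not overlap. The averaged wound effect was 1.84 ± 0.09 (adjusted p = 1.26e-09), and the genotype differences were 0.58 in mock and 0.60 after wounding. Of 61 tested LEA genes 38 rose, 6 fell and 17 were not called. Of the 27 at 5 CPM or more in both mutant groups, 18 had genotype differences below 0 in both states and 5 above 0 in both. The median differences of the 27 were -0.24 in mock and -0.17 after wounding. MpLEA1 (Mp5g23710), outside the naming rule, lay far below these medians, at -3.12 and -1.95. Its libraries were uneven, with 43.2, 97.4 and 39.2 CPM in mock Tak-1 and 16.6, 1.99 and 0.763 CPM in mutant mock.

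MpGH16.38 (Mp5g16860) is a glycoside hydrolase of family 16, a family whose plant members include enzymes that cut and rejoin xyloglucan in cell walls. It had 11.2, 9.68 and 6.62 CPM in mock Tak-1, 5.47, 5.51 and 9.27 CPM in wounded Tak-1, 14.8, 10.9 and 14.6 CPM in mutant mock and 10.1, 10.3 and 9.8 CPM in the wounded mutant. In mock, mutant library 2 lay below Tak-1 library 1, so the genotypes overlapped there, and after wounding they did not. Its averaged wound effect of -0.35 ± 0.15 missed the threshold (adjusted p = 0.055) and passed it without Tak-1 mock library 3 (-0.45, adjusted p = 0.013), wounded Tak-1 library 3 (-0.48, 0.00826) or mutant mock library 2 (-0.41, 0.0355), with DESeq2 (-0.37, 0.0277), with upper quartile scaling (-0.51, 0.00964) and without the low-count filter (-0.37, 0.0411). Of 24 tested GH16 genes 5 rose, 10 fell and 9 were not called. Of the 16 at 5 CPM or more in both mutant groups 9 had genotype differences above 0 in both states and 0 below in both, most of them small, such as 0.30 and 0.28 for MpGH16.9 (Mp2g18350). As the floor keeps genes by their mutant means alone, nothing is read from this lean.

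The largest differences belonged to genes without a symbol. Mp7g01940 had 374, 384 and 413 CPM in mock Tak-1, 370.2, 331 and 356 CPM in wounded Tak-1, 2671, 4399 and 4151 CPM in mutant mock and 2842, 2528 and 3176 CPM in the wounded mutant. No mutant library came near a Tak-1 library, and the ratio of means was 9.58 in mock and 8.08 after wounding. The genotype differences were 3.26 and 3.01. Its wound effect was not called (-0.19 ± 0.11, adjusted p = 0.167), but was without mutant mock library 1 (-0.29, adjusted p = 0.00266) and with upper quartile scaling (-0.35, adjusted p = 0.012).

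Mp1g23230 showed the same arrangement. It had 64.4, 66.4 and 64.4 CPM in mock Tak-1, 61.4, 52.2 and 61 CPM in wounded Tak-1, 287, 372 and 364 CPM in mutant mock and 274, 241 and 284 CPM in the wounded mutant, with ratios of means of 5.24 and 4.58 and differences of 2.38 and 2.19. The Tak-1 libraries lay close together and far below the mutant ones. Its wound effect of -0.17 ± 0.07 missed the threshold (adjusted p = 0.0534). It passed without wounded Tak-1 library 1 (-0.20, adjusted p = 0.0429), mutant mock library 1 (-0.24, 0.00255) or wounded mutant library B (-0.21, 0.0348). It also passed with DESeq2 (-0.19, 0.0289), without the low-count filter (-0.20, 0.0312) and with upper quartile scaling (-0.34, 0.000958). In the mutant alone the effect was -0.32.

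A further set of members differed by a smaller factor in both states without a called wound effect. Mp7g02900 had 136, 205 and 208 CPM in mock Tak-1, 289, 222 and 152 CPM in wounded Tak-1, 391, 531 and 437 CPM in mutant mock and 409, 654 and 478 CPM in the wounded mutant, with differences of 1.31 and 1.21. Mp7g05260 had 22.2, 26.7 and 23.6 CPM, then 18.8, 24.1 and 33.2 CPM, then 50.6, 74.4 and 57.6 CPM, then 58.1, 68.6 and 61.9 CPM, with differences of 1.31 and 1.29. In each of these genes the mutant libraries stood above all Tak-1 libraries in either state. Mp4g17880 had 3.44, 3.68 and 8.92 CPM in mock Tak-1, 2.67, 3.92 and 3.85 CPM in wounded Tak-1, 7.4, 15 and 13.2 CPM in mutant mock and 5.5, 8.9 and 10.3 CPM in the wounded mutant. Tak-1 mock library 3 lay above mutant mock library 1, so its mock groups overlapped. Averaged wound effects were 0.32 ± 0.17 for Mp7g02900 (adjusted p = 0.128), 0.14 ± 0.13 for Mp7g05260 (0.356) and -0.50 ± 0.27 for Mp4g17880 (0.121). Calls appeared for Mp7g02900 without wounded Tak-1 library 3 (0.43, adjusted p = 0.0258) and for Mp4g17880 without mutant mock library 1 (-0.64, 0.0446) or with upper quartile scaling (-0.67, 0.04).

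**Figure D3:**
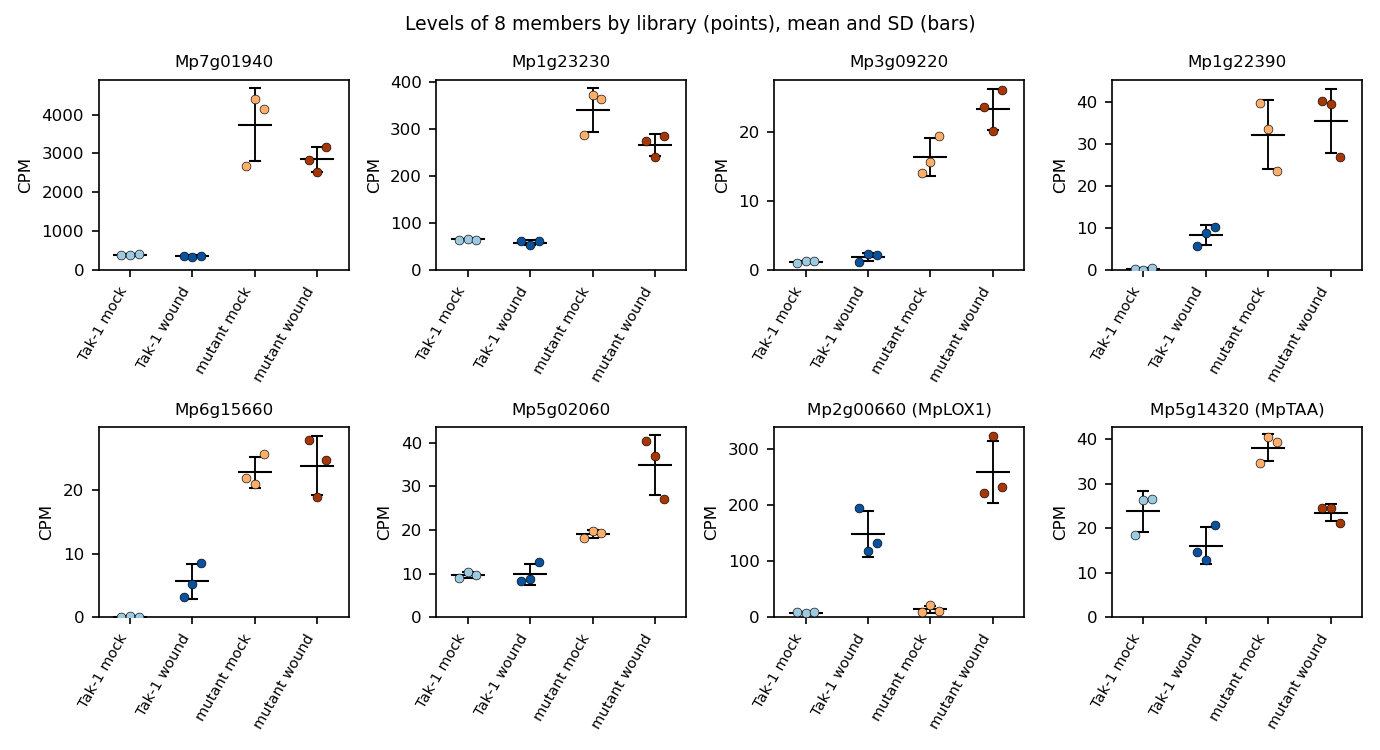
CPM of 8 members in each of the 12 libraries (points), by group, with the group mean and SD (n = 3) as bars and a linear y axis from 0 in each panel. Mp7g01940, Mp1g23230 and Mp3g09220 are high in both mutant groups. Mp1g22390 and Mp6g15660 are near 0 in mock Tak-1 alone, and MpLOX1 follows wounding in both genotypes.

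Mp1g22390 and Mp6g15660 were close to silent in mock Tak-1 plants. Mp1g22390 had 0.138, 0.0504 and 0.389 CPM there, 16 counts over the group, against 5.7, 8.88 and 10.3 CPM in wounded Tak-1, 39.7, 33.6 and 23.6 CPM in mutant mock and 40.2, 39.7 and 26.9 CPM in the wounded mutant. Mp6g15660 had 0, 0.151 and 0.0324 CPM, 4 counts over the group, then 3.13, 5.23 and 8.53 CPM, then 21.9, 20.9 and 25.6 CPM, then 28, 18.9 and 24.8 CPM. In both genes wounded Tak-1 lay between mock Tak-1 and the mutant, and the mock and wounded mutant libraries overlapped. Over the pooled counts, scaled by the pooled library totals, mutant mock stood 147 times above Tak-1 mock for Mp1g22390 and 415 times for Mp6g15660. No interval is given, since this contrast chose the genes. Of the 16 Tak-1 mock counts of Mp1g22390, 12 came from library 3. The rule's differences were 5.57 in mock and 2.04 after wounding for the former and 5.38 and 1.99 for the latter.

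The averaged wound effect of these genes rests on Tak-1. It was called for Mp1g22390 (2.75 ± 0.26, adjusted p = 8.29e-07) and for Mp6g15660 (3.37 ± 0.34, adjusted p = 1.41e-06). Fitted in the mutant alone, the change was 0.17 and 0.11, in the same order. In Tak-1 the pooled counts, scaled by the pooled library totals, were compared between wounded and mock plants. For Mp1g22390 the wounded value was 36.5 times the mock value, with a 95% counting interval of 22.3 to 64.3. For Mp6g15660 it was 97.4 times the mock value, with 37.8 to 359. These intervals cover counting error only and are no test, since the Tak-1 mock counts also entered the choice of the genes.

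The gene order of the reference assembly, which differs in places from the order of the IDs, placed some members next to each other. Members lay on each of the 8 autosomes, with 7, 2, 8, 5, 6, 3, 6 and 1 on chromosomes 1 to 8. On chromosome 3, a run of 7 counted genes from Mp3g09230 to Mp3g09220 had every mutant library above every Tak-1 library in both states, with differences of 1.28 to 3.31 in mock and 1.72 to 3.32 after wounding. Of these, 3 are members, Mp3g09190, Mp3g09160 and Mp3g09220, and the other 4 had mutant means under 5 CPM. A further 3 genes of the reference table lie inside the run and have no counts in the table.

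Mp3g09220 had 1.01, 1.31 and 1.27 CPM in mock Tak-1, 1.22, 2.3 and 2.14 CPM in wounded Tak-1, 14, 15.6 and 19.4 CPM in mutant mock and 23.7, 20.2 and 26.1 CPM in the wounded mutant. The ratios of means were 13.7 and 12.3. It rose after wounding by 0.66 ± 0.16 (adjusted p = 0.00258), from different base levels in the genotypes. Mp3g09190 had 1.1, 2.82 and 2.08 CPM, then 1.71, 1.9 and 2.14 CPM, then 4.58, 7.58 and 6.74 CPM, then 9.11, 10 and 13 CPM. Mp3g09160 had 6.11, 6.66 and 4.09 CPM, then 3.63, 4.24 and 4.24 CPM, then 16.2, 14.4 and 14.8 CPM, then 13, 15.2 and 15.2 CPM. Mp3g09190 was thus highest in the wounded mutant, while the mock and wounded mutant values of Mp3g09160 overlapped.

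Wound effects of the latter pair were not called. For Mp3g09190 the effect was 0.44 ± 0.21 (adjusted p = 0.0767). It was called without Tak-1 mock library 2 (0.56, adjusted p = 0.0301) or mutant mock library 2 (0.53, 0.0499). In the mutant alone it was 0.81, and with the replicate block 0.56. Mp3g09160 had -0.18 ± 0.11 (adjusted p = 0.188), with a call without Tak-1 mock library 3 (-0.28, 0.0183) and with upper quartile scaling (-0.34, 0.0151).

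Among the other genes of the run, MpNBS-LRR6 (Mp3g09200), of the nucleotide-binding leucine-rich repeat family that in plants holds many immune receptors, had 1.1, 0.454 and 0.649 CPM in mock Tak-1, 0.165, 0.991 and 0.787 CPM in wounded Tak-1, 1.47, 2.2 and 3.86 CPM in mutant mock and 2.84, 4.6 and 5.37 CPM in the wounded mutant. Mp3g09180 had 4 counts over all Tak-1 libraries and 240 over the mutant ones, and Mp3g09230 had 9 and 282. Beyond the run on one side, MpNBS-LRR5 (Mp3g09150) differed by 0.19 in mock and 0.78 after wounding, and the genes next to it on the far side, Mp3g09140 and Mp3g09130, by -0.16 and -0.21 in mock and 0.07 and 0.10 after wounding. Beyond it on the other side, MpNPF9 (Mp3g09240) differed by 0.41 and 1.15, and Mp3g09250, Mp3g09260 and Mp3g09270 were lower in the mutant, by -1.92, -2.17 and -1.60 in mock. The difference therefore changed sign within a few genes. Whether genes of the run resemble each other enough to share reads in counting was not tested.

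On chromosome 4, Mp4g06020 and Mp4g06030 are adjacent. Mp4g06030 had 973, 879.6 and 1110.1 CPM in mock Tak-1, 608, 512 and 484 CPM in wounded Tak-1, 1391, 1408 and 1392 CPM in mutant mock and 766, 801 and 743 CPM in the wounded mutant. Mp4g06020 had 109, 98.8 and 123 CPM, then 82.7, 63.8 and 58.4 CPM, then 167, 168 and 159 CPM, then 111, 100.5 and 94.9 CPM. Both genes kept the order mutant mock, Tak-1 mock, wounded mutant, wounded Tak-1 by their means. They fell after wounding, with averaged effects of -0.79 ± 0.07 (Mp4g06030, adjusted p = 7.29e-07) and -0.60 ± 0.09 (Mp4g06020, adjusted p = 4.67e-05). Genotype differences were 0.50 and 0.53 for Mp4g06030 and 0.58 in both states for Mp4g06020. The 6 genes before this pair in the reference order, Mp4g05960 to Mp4g06010, differed by 0.21 to 0.61 in mock and 0.09 to 0.37 after wounding, and Mp4g06040 after it by 0.46 and 0.37, all above 0 and each short of the threshold in at least 1 state.

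On chromosome 6, Mp6g15640 and Mp6g15660 are separated by Mp6g15650, which differed by 1.28 in mock and 1.40 after wounding at 2.12 CPM or less in every library. Together with Mp6g15630 (0.40 and 0.49), they formed a run of 4 counted genes with every mutant library above every Tak-1 library in both states. Next to Mp1g22390, Mp1g22380 differed by 1.60 and 0.79, with 12 counts over the Tak-1 libraries and 115 over the mutant ones. On the other side of it Mp1g22410 had 0.276, 0.303 and 0.13 CPM in mock Tak-1, 7.95, 6.9 and 9.32 CPM in wounded Tak-1, 0.557, 0.628 and 0.932 CPM in mutant mock and 1.97, 1.52 and 1.6 CPM in the wounded mutant. Its wounded mutant values thus lay below those of wounded Tak-1, the opposite of Mp1g22390. Around Mp7g01940 no such run was seen, the genes on either side of it, Mp7g01930 and Mp7g01950, differing by 0.23 and -0.54 in mock. Both had 1.41 CPM or less in every library, so their differences say little. The nearest genes at 5 CPM or more in both mutant groups were Mp7g01880 and Mp7g01960. They differed by 0.13 and -0.11 in mock and 0.36 and -0.01 after wounding.

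**Figure D4:**
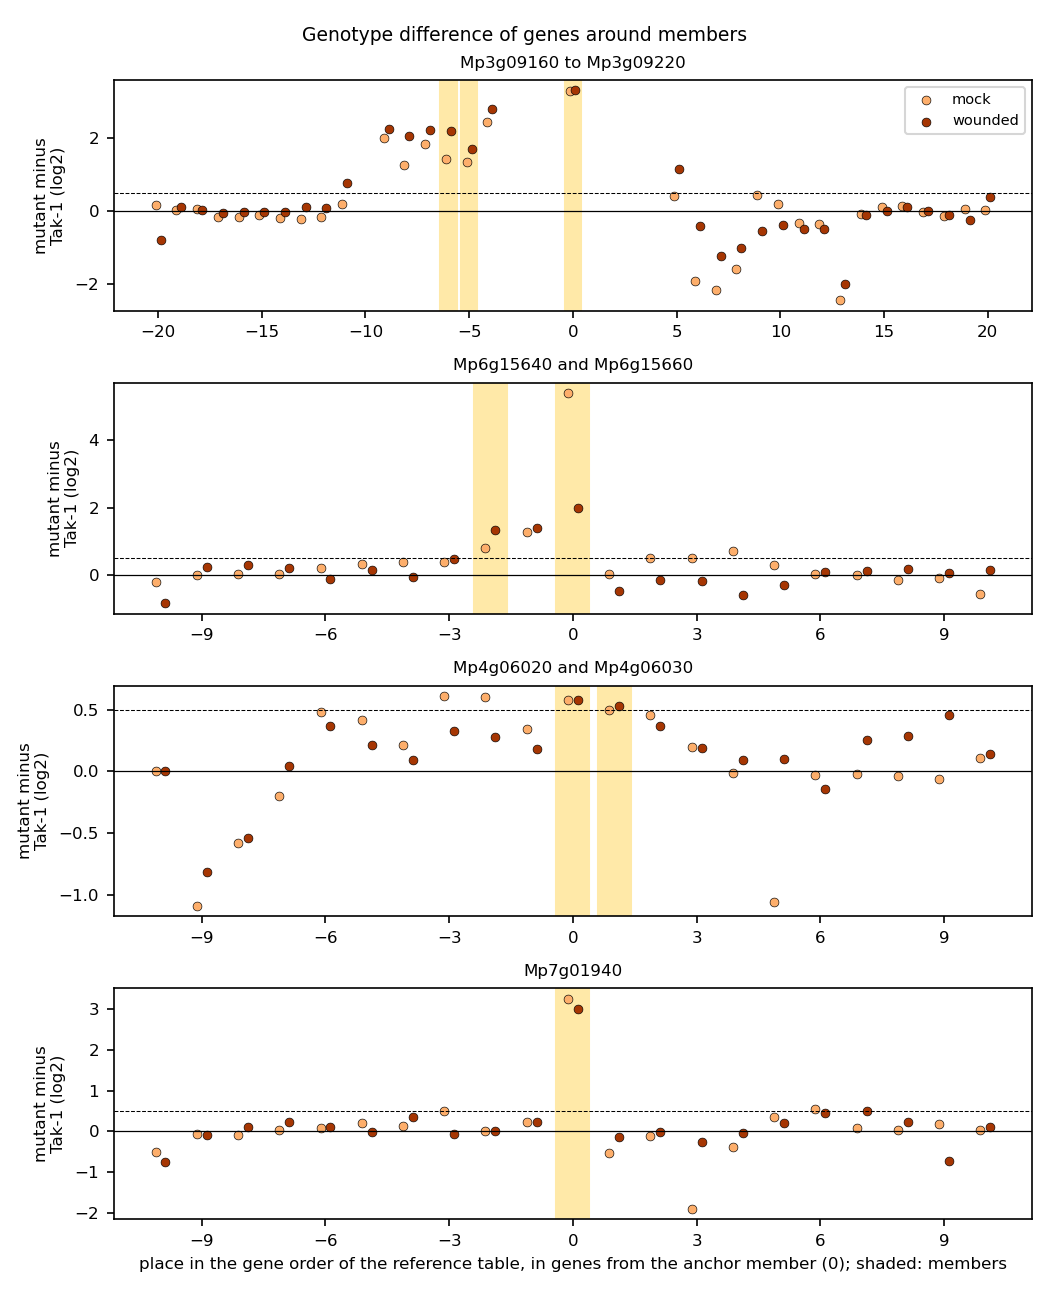
Mutant minus Tak-1 difference (y axis, log2) in mock (light) and wounded (dark) plants for counted genes around members at 4 loci, by their place in the reference gene order (x axis, in genes from the anchor member). Shading marks members and the broken line the threshold of 0.5. The chromosome 3 run of 7 genes stands above genes near 0 on its left, and Mp7g01940 stands alone.

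The wound effect averaged over both genotypes was called higher for 14 of the 38 genes (36.8%), where 34.5% of the 13726 tested genes were higher. It was called lower for 5 (13.2%), where 30.0% of tested genes were lower, and 19 were not called. The share that rose was near that of all tested genes. Those were not limited to the 9922 genes at 5 CPM or more in both mutant groups, from which the 38 come. Shares over the 9922 were not computed. The lower count depended on scaling: with upper quartile scaling, which shifted the median of all genes by -0.16, 13 were higher and 11 lower, and without mutant mock library 1, 8 were lower. The median effect of the 38 genes was 0.25 and that of all tested genes 0.01, with a range over the 38 of -0.79 to 4.28. The means moved the same way with wounding in both genotypes for 34 of the 38 genes. The matching share of all genes was not computed, so nothing is read from this count.

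Strong induction in both genotypes marked a group of members beside MpLOX1. Mp7g17120 had 8.13, 7.71 and 9.38 CPM in mock Tak-1, 91.7, 94.6 and 73.8 CPM in wounded Tak-1, 8.8, 14.7 and 13.3 CPM in mutant mock and 115, 123 and 131 CPM in the wounded mutant. Mp2g20260 had 3.54, 4.89 and 6.13 CPM, then 38.9, 56.9 and 44.3 CPM, then 4.38, 8.37 and 9.66 CPM, then 62.3, 86.6 and 82.4 CPM. For both genes mutant mock library 1 lay within the range of mock Tak-1, so the mock groups overlapped, and after wounding they did not. Mp7g17120 rose by 3.43 ± 0.13 (adjusted p = 1.14e-10) with genotype differences of 0.52 and 0.50, and Mp2g20260 by 3.40 ± 0.20 (adjusted p = 7.02e-09) with 0.57 and 0.72. Outside the naming rule, and chosen after their values were seen, Mp3g10230 rose by 2.69 ± 0.20 (adjusted p = 7.47e-08), Mp3g09800 by 2.02 ± 0.06 (2.04e-11) and Mp6g15640 by 1.35 ± 0.13 (1.05e-06). Mp3g09800 had means of 13.6 and 54.6 CPM in Tak-1 and 22.5 and 82 CPM in the mutant.

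Of the 5 genes that fell, Mp1g06380 had 94.2, 78.6 and 116 CPM in mock Tak-1, 53.1, 36.9 and 41.9 CPM in wounded Tak-1, 143, 129 and 138 CPM in mutant mock and 115, 108 and 94.5 CPM in the wounded mutant. The wounded mutant values lay in the range of mock Tak-1. The averaged effect was -0.67 ± 0.10 (adjusted p = 7.47e-05), and in the mutant alone it was -0.33. Mp1g07620 had 12.3, 9.33 and 7.24 CPM, then 5.93, 5.03 and 9.14 CPM, then 13.9, 10 and 18.4 CPM, then 10.2, 9.3 and 10 CPM, and its mock groups overlapped. Its call (-0.44 ± 0.17, adjusted p = 0.0387) was lost without Tak-1 mock library 1 (adjusted p = 0.108) or wounded Tak-1 library 1 (0.0805) or 2 (0.0891). It was also lost without mutant mock library 3 (0.108), or wounded mutant library 1 (0.0594), A (0.0726) or B (0.0579). The effect was -0.39 in Tak-1 alone and -0.48 in the mutant alone. In the 10 numbered libraries it was -0.48 with the replicate block (adjusted p = 0.103) and -0.44 without it (0.132), called in neither.

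**Figure D5:**
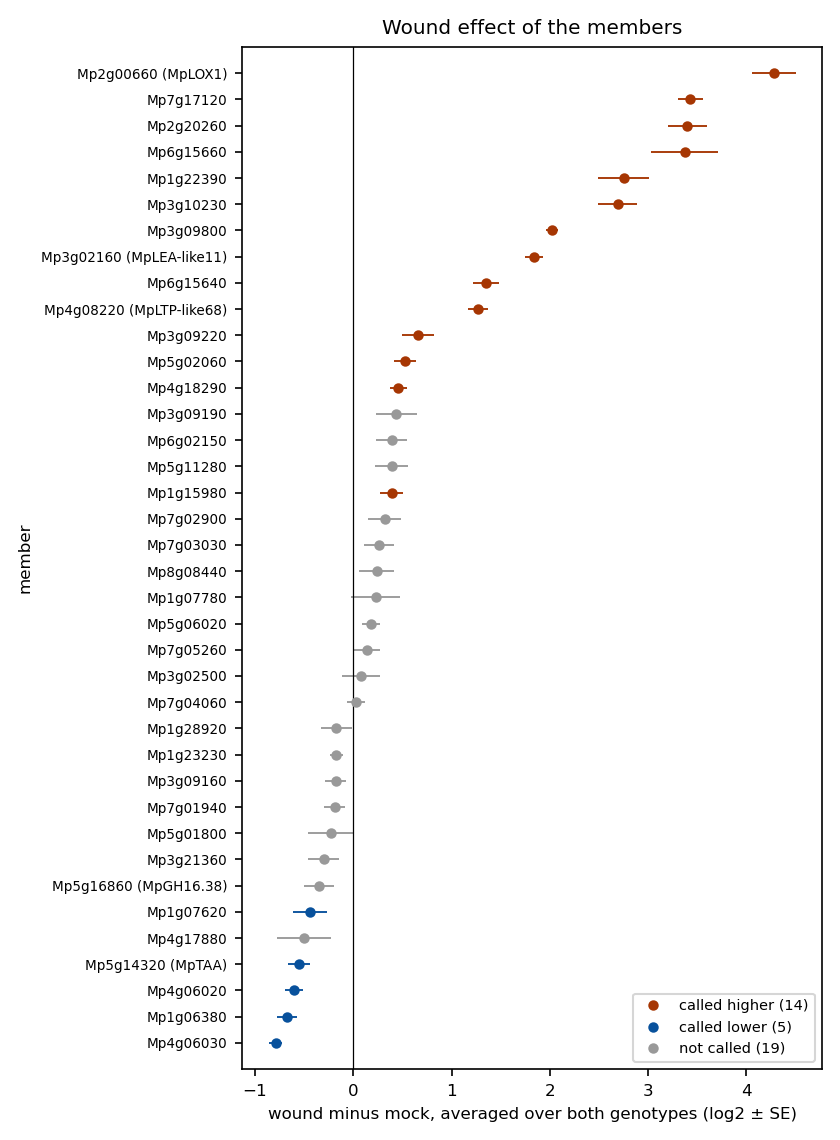
Wound minus mock difference averaged over both genotypes (x axis, log2, with SE as bars) for each of the 38 members, coloured by the edgeR call. MpLOX1 stands at the top at 4.28 and Mp4g06030 at the bottom at -0.79, with 14 genes called higher, 5 lower and 19 not called.

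Genotype differences of some members were unequal in mock and after wounding. These are differences of the values that chose the genes and carry no test. Those with the greatest excess in mock were Mp1g22390, Mp6g15660 and Mp1g07780. The last had 11.6, 5.7 and 3.28 CPM in mock Tak-1, 13, 7.69 and 6.69 CPM in wounded Tak-1, 20.2, 21.1 and 17.6 CPM in mutant mock and 17.6, 18.8 and 16.8 CPM in the wounded mutant, with differences of 1.45 and 0.92. The Tak-1 libraries of this gene were spread more widely than the mutant ones in both states. Its averaged wound effect was 0.23 ± 0.25 (adjusted p = 0.426) and was called without Tak-1 mock library 1 (0.54, adjusted p = 0.0237). It turned below 0 in the mutant alone (-0.11) and with the replicate block (-0.05).

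The greatest excess after wounding was found for Mp5g02060, Mp3g09190 and Mp1g06380. Mp5g02060 had 8.91, 10.4 and 9.73 CPM in mock Tak-1, 8.24, 8.76 and 12.6 CPM in wounded Tak-1, 18.1, 19.7 and 19.4 CPM in mutant mock and 40.5, 37 and 27.1 CPM in the wounded mutant. The mock and wounded Tak-1 libraries overlapped, while each wounded mutant library exceeded each mutant mock library. Wounded over mock, the ratio of means was 1.02 for Tak-1 and 1.83 for the mutant. Its averaged effect was 0.53 ± 0.11 (adjusted p = 0.000942), and in Tak-1 alone it was 0.15. For Mp1g06380 the genotype differences were 0.50 in mock and 1.26 after wounding, with ratios of wound to mock means of 0.457 in Tak-1 and 0.774 in the mutant.

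The remaining members, outside the naming rule and listed so that each gene is accounted for, differed modestly. Mp1g15980 and Mp4g18290 rose after wounding, by 0.39 ± 0.12 (adjusted p = 0.0125) and 0.46 ± 0.09 (adjusted p = 0.000644), and mutant means were 1.44 to 1.87 times those of Tak-1. No wound call was made for Mp1g28920, Mp3g02500, Mp3g21360, Mp5g01800, Mp5g06020, Mp5g11280, Mp6g02150, Mp7g04060 and Mp8g08440, whose adjusted p-values ran from 0.0517 to 0.77. Mp5g11280 was the 1 gene apart in mock and not after wounding, with 11.1, 13.6 and 19.6 CPM in wounded Tak-1 and 23.2, 19.5 and 28.9 CPM in the wounded mutant. Mp6g02150 had mutant means 2.18 and 1.73 times those of Tak-1, at 2.32 to 4.51 CPM in Tak-1 libraries.

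Members just inside the threshold were Mp4g06030, Mp7g17120 and Mp7g03030, the last with means of 6.89 (mock) and 7.29 CPM (wounded) in Tak-1 and 9.98 and 12.1 CPM in the mutant, differences of 0.50 and 0.69 and an averaged wound effect of 0.26 ± 0.15 (adjusted p = 0.145), called without wounded Tak-1 library 2 (0.35, adjusted p = 0.0455). Just outside it were Mp3g00450, with 0.49 in mock and 0.90 after wounding, Mp3g13470, with 0.63 and 0.48, and Mp5g02340, with 0.47 and 0.72. The rule also sets aside 2 genes by ID. Of them MpERF17 (Mp4g22280), an ethylene response factor, would have met the thresholds with 1.56 and 1.33, and MpPOD88 (Mp5g10690), a class III peroxidase, would not, with 0.31 in mock and 1.41 after wounding. When the rule was applied again without each library in turn, 17 of the 38 genes were chosen every time and 21 were lost at least once, MpLOX1, MpLEA-like11, MpLTP-like68, MpTAA and MpGH16.38 among them. Mutant mock library 1 was the lowest of its group for 22 of the 38 genes (57.9%), where it was lowest for 32.8% of the 9922 genes.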

How the data were processed

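The authors deposited raw gene counts, 1 column per library, as whole numbers with differing totals (19121900 to 30821817); the 12 libraries are not pooled. Per the submitters' processing notes, Trim Galore, HISAT2, HTSeq and edgeR were used, with no version or step recorded. With the genome build, annotation and strandedness not given in the sources used here, no coordinates are printed, and overlapping or antisense genes cannot be told apart. All columns of values were used. For names and gene order, 17386 of 20574 IDs matched protein-coding locus tags in a reference table (MpTak2_v7.1). No sequence was used here.

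CPM were taken over column totals. Wound against mock, averaged over both genotypes, was tested two-sided with edgeR 4.0.16 in R 4.3.3 (filterByExpr, TMM, 1 mean per group, quasi-likelihood, Benjamini-Hochberg over 13726 genes, threshold 0.05; degrees of freedom 8 residual, 4.46 prior; common BCV, the biological coefficient of variation, 0.121). This model was tested on simulated data. An SE is the absolute effect over the square root of F. Unless another tool is named, adjusted p-values are edgeR's. Correlations of log2 CPM across genes ran from 0.979 to 0.992 within groups and 0.876 to 0.985 between them, and counts of paired libraries within a group differed 7.97 to 26.2 times more than sampling noise (chi-square per degree of freedom). Intervals and floors cover counting error only.

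Members and lists were chosen with earlier results of these data known. Named genes are members with a symbol, the 10 with the largest smaller genotype difference, the 5 with the highest mean CPM, the 5 strongest wound calls in each direction, the 3 nearest the threshold on each side, adjacent members, and the 3 with the greatest excess of the difference in each state. Alternatives were upper quartile scaling, DESeq2 1.42.0, no filter, each library left out, a replicate block and each genotype alone.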

Additional observations from a re-analysis of the deposited data

How the results depend on the processing

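The set of 38 genes depended most on its thresholds. It held 24 genes with a constant of 2 CPM, 10 with a required difference of 1 and 66 with a mutant mean of 1 CPM, which follow from the stricter or looser rule, and 37 with TMM-scaled totals, of which 32 were shared. Leaving out each library gave 29 to 46 genes. Counts of wound calls below include the fits of Tak-1 or the mutant alone, whose calls are description. The 14 genes called higher after wounding were called under every left-out library, with counts of 14 to 16, and other settings gave 12 to 16. The genes called lower numbered 4 to 8 over the left-out libraries and 11 with upper quartile scaling, and the cause was not tested. Among the 24 genes named by the rule, 412 of the recomputed wound effects kept direction and call, 26 gained a call, 15 lost one and 3 changed sign: Mp1g07780 was -0.05 with the replicate block and -0.11 in the mutant alone, and Mp7g05260 was -0.03 with upper quartile scaling, none of them called.

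With the replicate block, in the 10 numbered libraries, 15 genes were higher and 5 lower, against 13 and 4 in the same libraries without it, a comparison chosen after seeing the data. Same-numbered libraries deviated from their group means with correlations of -0.14 to 0.19, differently numbered ones with -0.24 to 0.30, so the numbers were not taken as pairing samples. Replicates are few, at 3 per group, and 3 counts equal 0.0973 to 0.157 CPM, depending on the library.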
